A study of Mus musculus with 10 samples.

Results

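A set of 36 genes made by macrophages, lymphocytes or leukocytes in general was followed in ventricular RNA of 2 transgenic mouse lines and of nontransgenic controls (NTG). The genes were chosen by name: 24 myeloid genes, 7 genes of leukocytes in general and 5 lymphoid genes, out of 12393 genes with a probe set that carried 1 symbol alone. All 36 were found on the array, on 51 probe sets, and each was read from its brightest probe set. Both lines, alpha-TM175 (TM175) and alpha-TM180 (TM180), are alpha-tropomyosin transgenics, and the study set out to compare early mild with early severe hypertrophy. As background, hearts of the TM180 line enlarge more than those of TM175, and both model hypertrophic cardiomyopathy. There were 3 TM175, 4 TM180 and 3 NTG arrays, with no treatment in any group. The last array of each genotype (TM175 array 3, TM180 array 4, NTG array 3) carried a pool of 20 heart extracts, and the other 7 arrays each carried an individual extract. Strain, age, sex, the transgene promoter and the number of founder lines are not given in the sources used here. The labels also do not say whether a pool contained the hearts measured alone, so p-values measure only the spread between these arrays.

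Resident macrophages are the most common leukocytes of the healthy mouse heart, and they clear dying cells and debris. They are recognised by the colony-stimulating factor receptor Csf1r, the adhesion receptor Adgre1 (F4/80), Fc receptors that bind antibody, and the complement starter C1q, most of which macrophages make. In injured or overloaded hearts monocytes recruited from blood can add to them, while T cells carry the CD3 complex with CD4 or CD8, and B cells carry CD79. In whole ventricle, fewer cells of a type and less RNA per cell cannot be told apart.

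Levels below are linear intensities of probe sets, and a fold is the ratio of geometric means with its 95% interval. Adjusted p-values come from limma over 22626 probe sets and are called under 0.05. Ventricular cardiomyocyte genes (6 of 6 measured) summed to 39270 to 46200 in every array. Atrial markers (4 of 4 measured, Nppa the brightest) summed to 871.5 to 1258 in NTG, 846 to 5762 in TM175 and 6293 to 9802 in TM180. Nppa made up most of these sums, reading 635.4 to 906.1 in NTG, 521.4 to 5478 in TM175 and 5991 to 9127 in TM180. The median log2 deviation of the atrial markers from the NTG mean was 1.48 in TM180 array 3 and 1.21 in the TM180 pool. It was 0.29 in TM180 array 1 and -0.03 in TM180 array 2. In TM175 it was -0.06 in array 1, 0.14 in array 2 and 0.63 in the pool. The part of atrial tissue in the arrays was not tested. Median intensity per array ran from 66.6 to 70.9. TM175 array 1 stood apart by sex-linked transcripts: Xist, the RNA that silences an X chromosome in females, read 988 there and 99.5 to 136 in the other 6 individual arrays, and the Y-linked Eif2s3y read 7.23 there and 44.7 to 60.8 in those 6. The pools differed too: Xist read 414 in the TM175, 394 in the TM180 and 149 in the NTG pool, and Eif2s3y 38.3, 35.3 and 46.7. Summaries of the C1q chains, the myeloid and the lymphoid genes are also given without TM175 array 1, which leaves the difference between pools in place.

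No member passed the test in any of the 3 genotype comparisons. In TM175 against NTG limma called 0 of 36 members, where 0.00884% of all probe sets were called. At an unadjusted p under 0.05, which 13.0% of all probe sets met, 4 members passed: Cd8a was higher and Lcp1, Aif1 and Ctss were lower. In TM180 against NTG it called 0 of 36 (0.504% of all probe sets), and 3 members had an unadjusted p under 0.05 (9.34% of all), namely Lgals3 higher and Cd48 and Cybb lower. In TM180 against TM175 it called 0 of 36 (0% of all probe sets), and 9 members had an unadjusted p under 0.05 (13.3% of all), namely Lcp1, Cd68, Tyrobp and C1qc higher in TM180 and Cd8a, Itgam, Cd4, Cd79a and Cd3e lower.

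With extract type (pool or individual) in the model, limma again called 0 of 36 members in each comparison, where 0.862%, 2.01% and 0.0265% of all probe sets were called. With estimated array weights, a fit that gives noisier arrays less weight, 12 members were called in TM175, 2 in TM180 and 6 between the lines, beside 23.7%, 3.33% and 10.3% of all probe sets. The weights were largest for TM175 array 2 (3.24), NTG array 1 (2.92) and TM180 array 1 (2.51), all individual extracts. With extract type in the model and TM175 array 1 left out, a fit chosen after seeing the data, 0 of 36 members were called in each comparison, beside 0.0619%, 2.14% and 0% of all probe sets.

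Counted by arrays that did not overlap between groups, 5 members were higher and 4 lower in TM175 than in NTG, where 8.42% of all probe sets were higher and 8.11% lower. In TM180 against NTG 0 members were higher and 1 was lower, where 5.98% and 4.19% of all probe sets were. Between the lines 4 were higher and 5 lower in TM180, where 6.22% and 7.37% were. The members concerned are named below with their values.

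The main fit nevertheless bounded the differences. In that fit the 95% interval lay within 2-fold of no difference for all 36 members and in each comparison. The bound holds for that fit, which takes pools and individual extracts together. The log2 difference of C1qc in TM175, for one, was -0.65 in individual arrays and 0.14 in pools. The lowest limits were 0.564-fold for C1qc in TM175, 0.696-fold for C1qa in TM180 and 0.617-fold for Fcgr2b between the lines. The highest were 1.73-fold for Fcgr2b in TM175, 1.60-fold for Laptm5 in TM180 and 1.79-fold for C1qc between the lines. Intervals within 0.5 on the log2 scale were reached by 16 members in TM175, 28 in TM180 and 19 between the lines. These intervals are not adjusted for the number of genes.

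**Figure D1:**
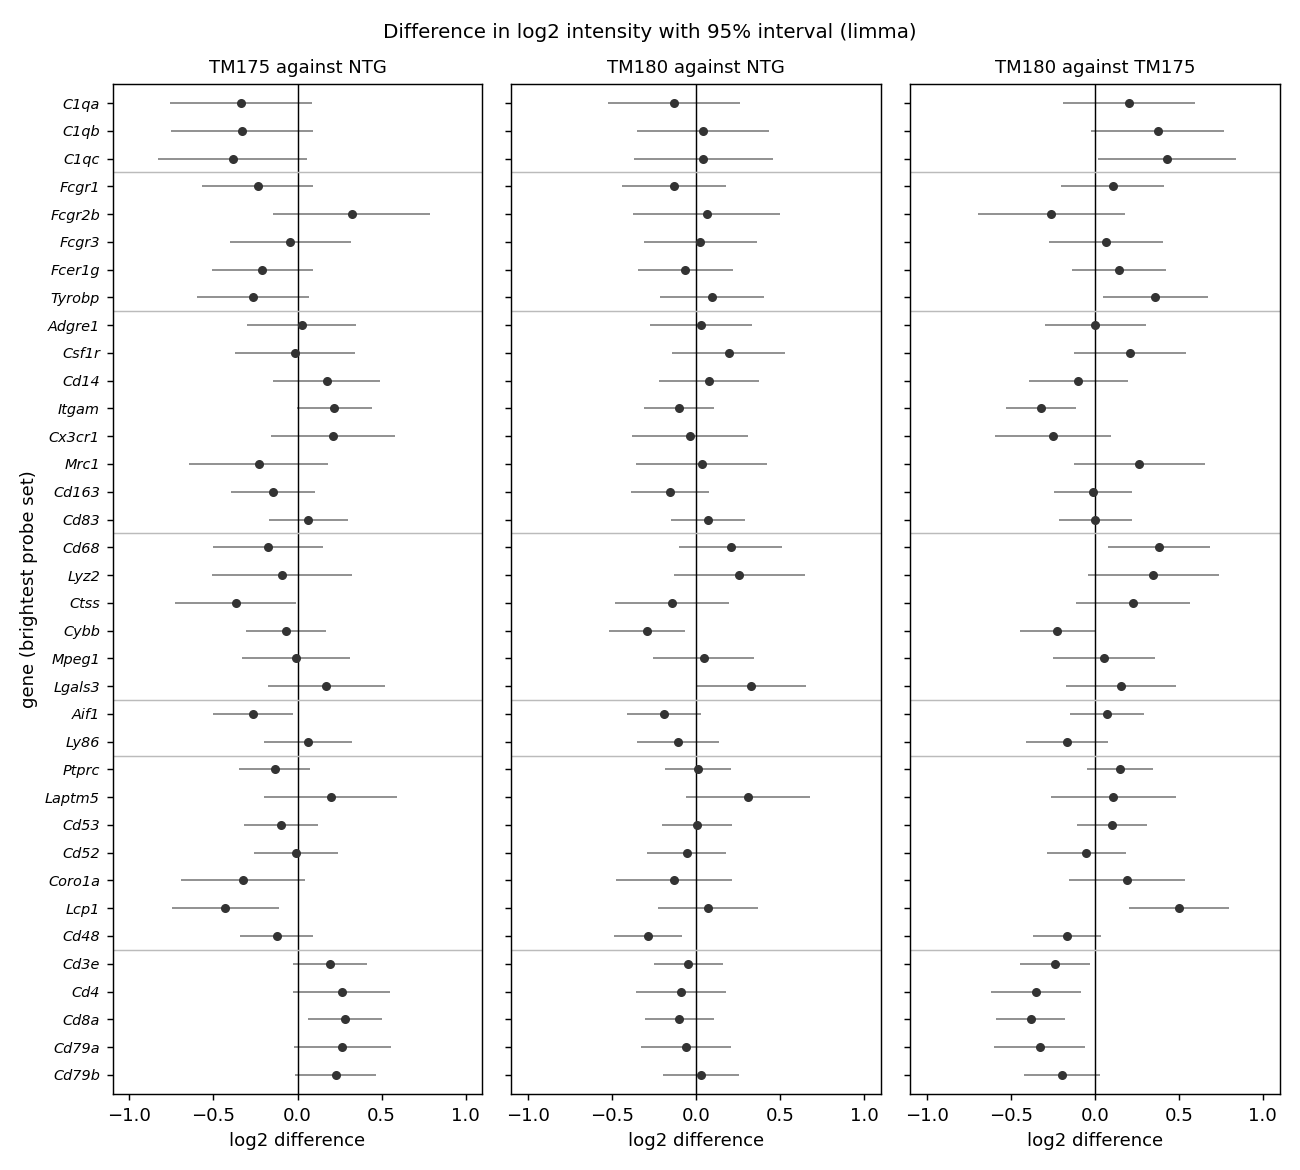
Log2 difference in intensity (horizontal axis) of each of the 36 genes (vertical axis, grouped by role) for TM175 against NTG, TM180 against NTG and TM180 against TM175, with points for the limma estimate and bars for its 95% interval. All bars lie between -1 and 1, and bars that miss the line at 0 belong to 4, 3 and 9 genes.

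The lymphoid genes leaned higher in TM175 than in NTG, and the other medians against NTG lay between -0.12 and 0.03 on the log2 scale. In TM175 the 24 myeloid genes had a median log2 difference from NTG of -0.08, with 8 above 0. The 7 general leukocyte genes had a median of -0.12 with 1 above 0, and the 5 lymphoid genes 0.26 with 5 above 0. All probe sets had a median of 0.04. In TM180 the medians were 0.03, 0.00 and -0.06, with 14 of 24, 4 of 7 and 1 of 5 above 0, and -0.01 for all probe sets. These TM180 medians changed sign between settings, to -0.0073 and -0.064 for myeloid and general leukocyte genes in individual arrays alone and 0.0014 for lymphoid genes with array weights. Between the lines (TM180 minus TM175) they were 0.09, 0.11 and -0.33, with 17 of 24, 5 of 7 and 0 of 5 above 0, and -0.03 for all probe sets. NTG serves as control in both of the first comparisons, so they are not independent of each other.

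**Figure D2:**
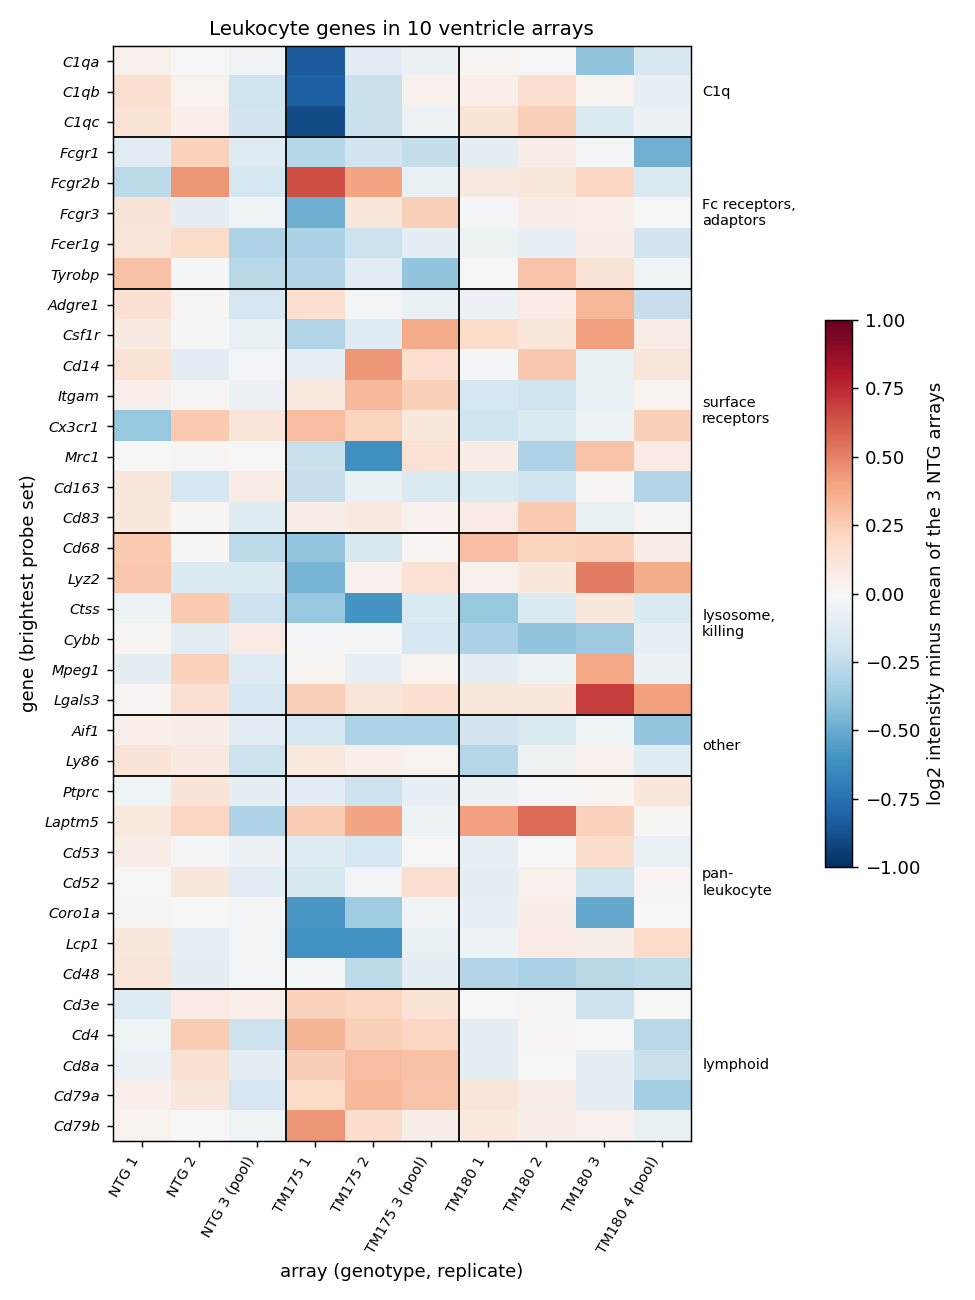
Each row is 1 of the 36 genes, grouped by role, and each column 1 of the 10 arrays; the colour gives the log2 intensity minus the mean of the 3 NTG arrays for that gene, from blue (lower) to red (higher). The 3 C1q genes are bluest in TM175 array 1, and the 5 lymphoid genes are red in all 3 TM175 arrays.

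C1q is a complement protein assembled from 3 chains, C1qa, C1qb and C1qc, whose genes lie next to each other on mouse chromosome 4. In the RefSeq gene table C1qc follows C1qb as the next protein-coding gene and C1qa follows C1qc. The 250 bases before the start of C1qb and C1qc are shown because the chains varied together across arrays. They are RefSeq sequences of GRCm38.p6 on the minus strand, at chr4:136886201-136886450 and chr4:136892915-136893164, written 5′ to 3′. Capitals mark GAGGAA or its reverse complement TTCCTC, the core letters bound by PU.1, a transcription factor of myeloid cells.
C1qb promoter: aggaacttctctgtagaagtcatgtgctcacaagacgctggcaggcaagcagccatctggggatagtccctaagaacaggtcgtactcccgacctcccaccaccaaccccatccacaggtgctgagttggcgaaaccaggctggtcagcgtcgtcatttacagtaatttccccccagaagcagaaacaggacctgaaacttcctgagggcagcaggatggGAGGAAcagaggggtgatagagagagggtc
C1qc promoter: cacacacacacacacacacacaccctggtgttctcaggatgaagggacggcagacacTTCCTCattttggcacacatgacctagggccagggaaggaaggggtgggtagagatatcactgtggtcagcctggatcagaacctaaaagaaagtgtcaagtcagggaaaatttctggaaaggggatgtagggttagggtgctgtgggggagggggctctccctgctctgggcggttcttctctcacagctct
Each window held 1 match. Searched on both strands in the 250 bases before the start, the motif occurred in 23.3% of 32851 promoters and in at least 1 promoter of 25.9% of 27025 genes. Of the 27 members in that table, 15 had it in a promoter (55.6%). Those not in the table are Tyrobp, Cd83, Cd4, Csf1r, Cd79b, Cd14, C1qa, Cd52 and Adgre1. A match is a description of letters and does not show binding.

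The C1q chains were lowest in a single array of TM175. C1qa, the A chain, read 534, 516 and 506 in the NTG arrays, 291, 479 and 497 in the TM175 arrays and 529, 519, 395 and 465 in the TM180 arrays. C1qb read 391, 359 and 306 in the NTG arrays, 198, 301 and 361 in the TM175 arrays and 364, 392, 359 and 331 in the TM180 arrays. C1qc read 317, 299 and 253 in the NTG arrays, 155, 248 and 279 in the TM175 arrays and 316, 340.2, 262 and 277 in the TM180 arrays. TM175 array 1 was the lowest of the 10 arrays for all 3 chains, at 291, 198 and 155, while the TM175 pool lay among the other arrays. Mean C1qa was 519 ± 13.9 (SD, n = 3) in NTG, 422 ± 114 (SD, n = 3) in TM175 and 477 ± 61.3 (SD, n = 4) in TM180.

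The fold in TM175 was 0.792-fold (95% interval 0.592 to 1.06, adjusted p = 0.468) for C1qa, 0.795-fold (95% interval 0.594 to 1.06, adjusted p = 0.472) for C1qb and 0.765-fold (95% interval 0.564 to 1.04, adjusted p = 0.427) for C1qc. The C1qa arrays of TM175 all lay below those of NTG, whereas those of C1qb and C1qc overlapped. None of the 3 passed, and for each chain the SD within TM175 exceeded the difference between the means. Individual arrays alone gave log2 differences of -0.49, -0.62 and -0.65, whereas the pools alone gave -0.03, 0.24 and 0.14. With extract type in the model and without TM175 array 1 the 3 values were -0.08, -0.07 and -0.12. In TM180 the folds from NTG were 0.914-fold, 1.03-fold and 1.03-fold (adjusted p of 0.977, 0.998 and 0.998).

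Across the 10 arrays the chains varied together, with Pearson's r of 0.839 between C1qa and C1qb (Spearman's rho 0.733), 0.908 between C1qa and C1qc (rho 0.83) and 0.97 between C1qb and C1qc (rho 0.939). The permutation p-values adjusted over these 3 relations were 0.028, 0.00564 and 0.00045 for r and 0.0205, 0.00703 and 0.00069 for rho, against raw values of 0.028, 0.00376 and 0.00015 for r and 0.0205, 0.00469 and 0.00023 for rho. Without the 2 arrays farthest from the median, TM175 array 1 always among them, r was 0.679, 0.691 and 0.81. Within the 7 individual arrays r was 0.876, 0.942 and 0.975, with exact permutation p-values adjusted over the 3 of 0.0266, 0.0134 and 0.00238. The 3 pools are too few for a value of their own. All permutations ignored genotype, and those over the 10 arrays also ignored extract type. Differences between groups therefore count as shared variation in these p-values. How often other pairs of genes reach such r was not tested.

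**Figure D3:**
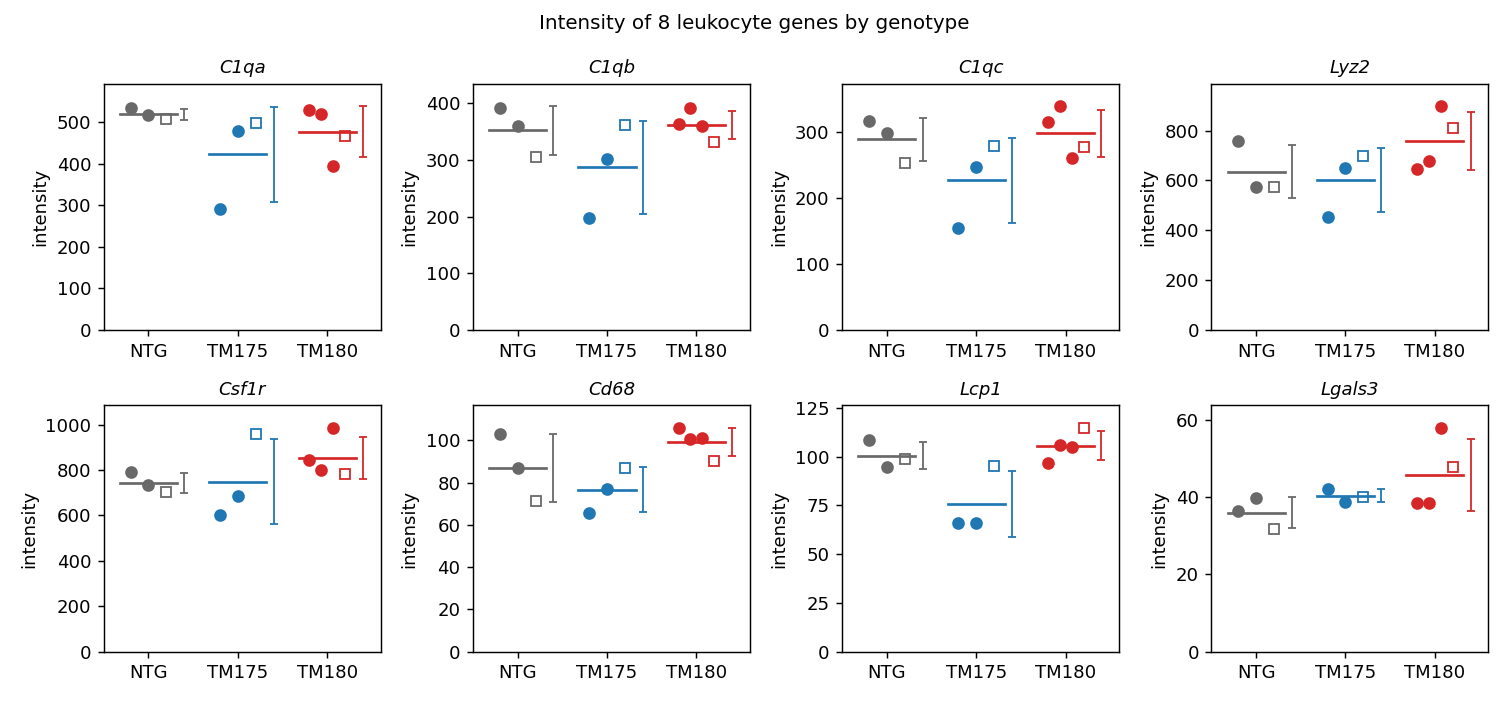
Linear intensity (vertical axis, from 0) of C1qa, C1qb, C1qc, Lyz2, Csf1r, Cd68, Lcp1 and Lgals3 by genotype, with filled circles for individual extracts, open squares for pools of 20 hearts, a horizontal line for the group mean and a bar for 1 SD on each side. For the 3 C1q genes the lowest circle is TM175 array 1, and for Lcp1 both individual TM175 arrays lie near 66 below every other array.

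Fc receptors and their adaptors overlapped between genotypes apart from Fcgr1 in TM175 and Tyrobp between the lines. Fcgr1, the high-affinity IgG receptor, read 20.4, 25.7 and 20.0 in the NTG arrays, 18.0, 19.1 and 18.6 in the TM175 arrays and 20.5, 22.9, 21.5 and 15.7 in the TM180 arrays. Its TM175 arrays lay below all NTG arrays, at 0.848-fold (95% interval 0.675 to 1.07, adjusted p = 0.511). Fcgr2b, the inhibitory IgG receptor, read 399, 648 and 423 in the NTG arrays, 747, 629 and 455 in the TM175 arrays and 508, 515, 552 and 432 in the TM180 arrays. Both individual TM175 arrays and NTG array 2 were high, and the pool was the lowest array of TM175 and of TM180. Its difference was 1.25-fold (95% interval 0.904 to 1.73, adjusted p = 0.529) in TM175 and 1.04-fold (adjusted p = 0.998) in TM180, and its 4 probe sets differed in sign in all 3 comparisons.

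Fcgr3, an activating IgG receptor, read 87.4, 75.3 and 77.7 in the NTG arrays, 57.1, 86.7 and 94.5 in the TM175 arrays and 78.9, 84.3, 82.7 and 79.7 in the TM180 arrays. TM175 array 1 was again the lowest of 10 and the TM175 pool the highest, so that its mean was 79.5 ± 19.7 (SD, n = 3) in TM175 against 80.1 ± 6.42 (SD, n = 3) in NTG. Fcer1g, the signalling chain shared by Fc receptors, was at 0.865-fold (adjusted p = 0.526) in TM175 and 0.956-fold (adjusted p = 0.993) in TM180. Tyrobp, the adaptor DAP12, read 160.2, 129.9 and 108 in the NTG arrays, 107, 122 and 99.5 in the TM175 arrays and 132, 159, 143 and 127 in the TM180 arrays. Its TM180 arrays lay above every TM175 array, at 1.28-fold (95% interval 1.03 to 1.59, adjusted p = 0.350) between the lines, and overlapped NTG.

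Surface receptors of macrophages gave no direction as a group, with medians of 0.05 in TM175 and 0.03 in TM180 over 8 genes. Csf1r, the receptor for the macrophage growth factor, read 791, 736 and 704 in the NTG arrays, 602, 684 and 959.8 in the TM175 arrays and 842, 800.3, 986 and 782 in the TM180 arrays. The highest values were TM180 array 3 and the TM175 pool, and the lowest was TM175 array 1. It lay at 0.989-fold (95% interval 0.772 to 1.27, adjusted p = 0.974) in TM175 and at 1.14-fold (95% interval 0.907 to 1.44, adjusted p = 0.865) in TM180. Adgre1, the F4/80 antigen, had means of 209 ± 22.8 (SD, n = 3) in NTG, 212 ± 18.5 (SD, n = 3) in TM175 and 214 ± 35.8 (SD, n = 4) in TM180, at 1.02-fold (95% interval 0.814 to 1.27, adjusted p = 0.955) and 1.02-fold (95% interval 0.828 to 1.26, adjusted p = 0.999).

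Itgam, the integrin chain CD11b, read 15.0, 14.5 and 13.8 in the NTG arrays, 15.4, 18.1 and 17.0 in the TM175 arrays and 12.8, 12.6, 13.8 and 14.8 in the TM180 arrays, all of them dim. Every TM175 array lay above every NTG and every TM180 array. The difference was 1.16-fold (95% interval 0.998 to 1.36, adjusted p = 0.389) in TM175 against NTG and 0.800-fold (95% interval 0.692 to 0.924, adjusted p = 0.305) in TM180 against TM175. Cx3cr1, the fractalkine receptor, ran from 39.2 in NTG array 1 to 63.0 in TM175 array 1, at 1.16-fold (adjusted p = 0.607) in TM175 and 0.976-fold (adjusted p = 0.999) in TM180.

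Mrc1, the mannose receptor of resident macrophages, read 254, 257 and 255 in the NTG arrays, 219, 167 and 282 in the TM175 arrays and 269, 206, 312 and 270.0 in the TM180 arrays. The NTG arrays lay close together and both lines scattered around them. The fold was 0.852-fold (adjusted p = 0.614) in TM175 and 1.02-fold (adjusted p = 0.999) in TM180. Cd163, the haemoglobin scavenger receptor, lay at 0.904-fold (adjusted p = 0.601) and 0.898-fold (adjusted p = 0.803). Cd14, the lipopolysaccharide co-receptor, lay at 1.13-fold (adjusted p = 0.621) and 1.05-fold (adjusted p = 0.989), and the activation marker Cd83 at 1.05-fold (adjusted p = 0.818) and 1.05-fold (adjusted p = 0.979).

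Genes of the lysosome and of microbial killing were mixed. Cd68, a lysosomal glycoprotein of macrophages, read 103, 86.7 and 71.2 in the NTG arrays, 65.7, 77.0 and 87.0 in the TM175 arrays and 106, 101, 101 and 90.1 in the TM180 arrays. All TM180 arrays exceeded all TM175 arrays, at 1.30-fold (95% interval 1.05 to 1.61, adjusted p = 0.330), while the NTG arrays overlapped both lines. Lyz2, the macrophage lysozyme, read 759, 572 and 573 in the NTG arrays, 455, 649 and 697 in the TM175 arrays and 646, 677, 898 and 812 in the TM180 arrays. TM180 array 3 and the TM180 pool were highest and TM175 array 1 lowest, and the fold was 0.939-fold (95% interval 0.703 to 1.25, adjusted p = 0.856) in TM175 and 1.20-fold (95% interval 0.912 to 1.57, adjusted p = 0.804) in TM180.

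Ctss, the protease cathepsin S that trims the class II invariant chain, read 208, 258 and 185 in the NTG arrays, 165, 143 and 195 in the TM175 arrays and 165, 194, 232 and 194 in the TM180 arrays. It was among the 4 members with an unadjusted p under 0.05 in TM175, at 0.774-fold (95% interval 0.602 to 0.995, adjusted p = 0.378), though the TM175 pool lay within the NTG range. Cybb, the catalytic chain of the phagocyte NADPH oxidase, read 44.6, 40.8 and 46.6 in the NTG arrays, 43.3, 43.4 and 39.1 in the TM175 arrays and 35.2, 33.4, 34.1 and 41.5 in the TM180 arrays. The 3 individual TM180 arrays were the lowest of the 10 and the TM180 pool lay within the NTG range, at 0.817-fold (95% interval 0.699 to 0.955, adjusted p = 0.340) overall. Mpeg1, the pore-forming perforin-2, was at 0.993-fold (adjusted p = 0.983) in TM175 and 1.03-fold (adjusted p = 0.998) in TM180.

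Lgals3, the galactose-binding lectin galectin-3, read 36.4, 39.9 and 31.9 in the NTG arrays, 42.3, 38.9 and 40.1 in the TM175 arrays and 38.5, 38.5, 58.0 and 47.8 in the TM180 arrays. TM180 array 3 and the TM180 pool were the highest, and the 2 remaining TM180 arrays lay within the NTG range. Its mean was 45.7 ± 9.29 (SD, n = 4) in TM180 against 36.0 ± 4.01 (SD, n = 3) in NTG, at 1.26-fold (95% interval 1.00 to 1.57, adjusted p = 0.528). Aif1, a calcium-binding protein of macrophages also known as Iba1, read 70.1, 70.5 and 63.1 in the NTG arrays, 59.9, 54.7 and 54.9 in the TM175 arrays and 59.5, 61.3, 65.8 and 51.8 in the TM180 arrays. All TM175 arrays lay below all NTG arrays, at 0.833-fold (95% interval 0.706 to 0.981, adjusted p = 0.346), and 1 TM180 array overlapped NTG, at 0.876-fold (95% interval 0.751 to 1.02, adjusted p = 0.636). Ly86, the partner of a Toll-like receptor homologue, lay at 1.04-fold (adjusted p = 0.846) and 0.930-fold (adjusted p = 0.947).

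Among the genes of leukocytes in general, the largest difference was that of Lcp1, the actin-bundling protein L-plastin. It read 108, 94.8 and 98.6 in the NTG arrays, 66.1, 65.9 and 95.3 in the TM175 arrays and 96.9, 106, 105 and 115 in the TM180 arrays. Both individual TM175 arrays were far below the rest, and the TM175 pool lay within the NTG range. The mean was 75.8 ± 16.9 (SD, n = 3) in TM175 and 101 ± 6.95 (SD, n = 3) in NTG, at 0.743-fold (95% interval 0.596 to 0.926, adjusted p = 0.267), and 106 ± 7.35 (SD, n = 4) in TM180, at 1.05-fold (95% interval 0.855 to 1.29, adjusted p = 0.993) against NTG and 1.41-fold (95% interval 1.15 to 1.74, adjusted p = 0.302) against TM175. With extract type in the model the adjusted p was 0.0879 against NTG and 0.0757 between the lines. The log2 difference from NTG was -0.62 in individual arrays and -0.05 in pools. A slightly dimmer Lcp1 probe set gave log2 differences of -0.22 in TM175 and 0.24 between the lines (adjusted p of 0.480 and 0.405), against -0.43 and 0.50 for the brightest.

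Coro1a, the leukocyte actin regulator coronin 1A, read 54.9, 54.6 and 53.9 in the NTG arrays, 36.3, 42.6 and 53.1 in the TM175 arrays and 51.3, 57.1, 38.2 and 54.4 in the TM180 arrays. TM175 array 1 and TM180 array 3 were low, and the NTG arrays were close together. The TM175 arrays lay below the NTG arrays, by a small margin for the pool, at 0.799-fold (95% interval 0.618 to 1.03, adjusted p = 0.427). Cd48, an adhesion molecule on lymphocytes and myeloid cells, read 40.4, 34.8 and 36.3 in the NTG arrays, 36.6, 30.9 and 34.9 in the TM175 arrays and 30.2, 29.7, 30.6 and 31.1 in the TM180 arrays. It was the 1 member whose TM180 and NTG arrays did not overlap. Its mean was 30.4 ± 0.591 (SD, n = 4) in TM180 against 37.2 ± 2.88 (SD, n = 3) in NTG, at 0.819-fold (95% interval 0.712 to 0.943, adjusted p = 0.272), and this was the lowest adjusted p of any member in that comparison.

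Ptprc, the phosphatase CD45 carried by nearly all leukocytes, read 66.1, 74.2 and 64.0 in the NTG arrays, 62.7, 58.9 and 64.0 in the TM175 arrays and 65.1, 67.1, 68.8 and 73.4 in the TM180 arrays. Its range over the 10 arrays, 1.26-fold, was the narrowest of the 36 members, and the widest was 2.19-fold for C1qc. Ptprc lay at 0.910-fold (95% interval 0.787 to 1.05, adjusted p = 0.552) in TM175 and 1.01-fold (95% interval 0.880 to 1.16, adjusted p = 0.999) in TM180, and its TM180 arrays exceeded its TM175 arrays (1.11-fold, adjusted p = 0.460). The tetraspanin Cd53 lay at 0.934-fold and 1.00-fold and the glycoprotein Cd52 at 0.996-fold and 0.962-fold. Laptm5, a lysosomal membrane protein of leukocytes, lay at 1.15-fold (adjusted p = 0.653) and 1.24-fold (adjusted p = 0.662).

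The 5 lymphoid genes were each higher in TM175 than in NTG on average. For 4 of 5 the arrays did not overlap, where 8.42% of all probe sets were higher without overlap. Cd8a, the co-receptor of cytotoxic T cells, read 24.6, 28.5 and 23.9 in the NTG arrays, 30.4, 31.6 and 31.4 in the TM175 arrays and 24.1, 25.6, 24.1 and 21.9 in the TM180 arrays. TM175 arrays lay above all other arrays, at 1.22-fold (95% interval 1.04 to 1.42, adjusted p = 0.288) against NTG. TM180 lay at 0.768-fold (95% interval 0.666 to 0.885, adjusted p = 0.302) against TM175, and this unadjusted p of 0.00186 was the lowest of any member in the 3 genotype comparisons. A dimmer Cd8a probe set gave log2 differences of 0.13 in TM175 and -0.10 between the lines (adjusted p of 0.639 and 0.645), where the brightest gave 0.28 and -0.38. Cd3e, a chain of the T cell receptor complex, read 199.5, 231 and 226 in the NTG arrays, 256, 253 and 239.9 in the TM175 arrays and 218, 222, 189 and 219.5 in the TM180 arrays. Again the TM175 arrays were the highest, at 1.14-fold (95% interval 0.980 to 1.33, adjusted p = 0.431) against NTG and 0.848-fold (95% interval 0.735 to 0.979, adjusted p = 0.350) between the lines.

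Cd4, the co-receptor of helper T cells, read 54.5, 67.1 and 48.3 in the NTG arrays, 70.9, 66.3 and 64.9 in the TM175 arrays and 52.5, 56.6, 56.3 and 46.4 in the TM180 arrays. NTG array 2 lay among the TM175 arrays, so the groups overlapped, at 1.20-fold (95% interval 0.983 to 1.46, adjusted p = 0.415). The TM180 arrays lay below all TM175 arrays, at 0.784-fold (95% interval 0.651 to 0.945, adjusted p = 0.326). A dimmer Cd4 probe set gave log2 differences of 0.11 in TM175 and -0.09 between the lines, against 0.26 and -0.35 for the brightest. Cd79a, a signalling chain of the B cell receptor, read 45.0, 46.9 and 38.6 in the NTG arrays, 49.6, 54.2 and 52.8 in the TM175 arrays and 47.1, 45.2, 40.8 and 34.3 in the TM180 arrays. TM175 was above NTG without overlap at 1.20-fold (95% interval 0.986 to 1.47, adjusted p = 0.409), and TM180 was below TM175 at 0.796-fold (95% interval 0.661 to 0.960, adjusted p = 0.337). Its partner Cd79b read 17.6, 17.2 and 16.6 in the NTG arrays, 23.3, 19.4 and 17.9 in the TM175 arrays and 18.3, 17.9, 17.6 and 16.2 in the TM180 arrays. TM175 array 1 was highest, and the TM175 pool lay just above the NTG arrays, at 1.17-fold (95% interval 0.990 to 1.38, adjusted p = 0.406).

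All 5 lymphoid genes were highest in TM175 array 1 or 2, which were also highest for 20.2% and 11.5% of all probe sets. In the TM180 pool 4 of 5 were lowest, where 18.1% of all probe sets were lowest. The summed intensity of the 5 lymphoid genes was 407 to 429.7 in the TM175 arrays, 341 to 390.4 in NTG and 328 to 367 in TM180. With extract type in the model and without TM175 array 1 the median log2 difference of the 5 genes in TM175 was 0.26. Of the 5, only Cd3e was above the median level of all probe sets, against 16 of 24 myeloid and 3 of 7 general leukocyte genes. Markers of other cells leaned the same way in TM175: all 8 neutrophil and all 6 mast cell markers lay above 0, with medians of 0.12 and 0.17. By array, these lists lay above the NTG mean in both individual TM175 arrays (0.17 and 0.25 for neutrophil, 0.33 and 0.25 for mast cell markers) and below it in the TM175 pool (-0.11 and -0.03), where the lymphoid median was 0.21. NTG array 2, also an individual extract, lay at 0.21 for neutrophil and 0.21 for mast cell markers. Red blood cell markers, 3 of 4 measured, summed to 319 to 338 in TM175, 227 to 266 in NTG and 209 to 231 in TM180. The part of these in the lymphoid values was not tested.

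**Figure D4:**
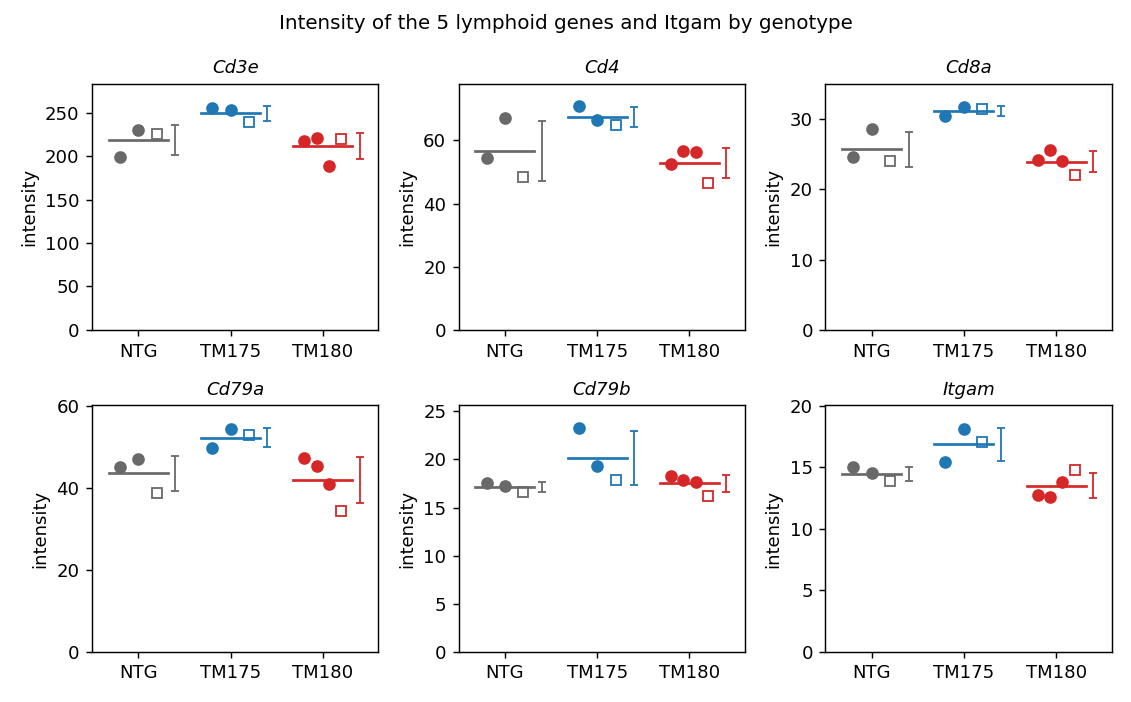
Linear intensity (vertical axis, from 0) of the 5 lymphoid genes and of Itgam by genotype, with filled circles for individual extracts, open squares for pools, a horizontal line for the group mean and a bar for 1 SD on each side. The TM175 points of Cd8a lie at 30.4 to 31.6 and those of NTG at 23.9 to 28.5.

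Other lists of immune genes, chosen with earlier results known, were set beside the 36. Of 42 further macrophage and myeloid genes 35 were measured, and limma called 0 in each comparison, with 3, 4 and 4 at an unadjusted p under 0.05. That threshold was met by 13.0%, 9.34% and 13.3% of all probe sets. The medians of the list were 0.16 in TM175, 0.04 in TM180 and -0.05 between the lines. With extract type in the model 2 of the 35 were called, where 0.862%, 2.01% and 0.0265% of all probe sets were. Siglec1, the sialoadhesin of resident macrophages, read 100.4, 116 and 95.7 in the NTG arrays, 150.3, 147 and 138 in the TM175 arrays and 119, 118, 132 and 111 in the TM180 arrays. All its TM175 arrays exceeded all other arrays, and with extract type in the model it rose in TM175 (log2 difference 0.48 ± 0.09 SE, adjusted p = 0.0427). Without TM175 array 1 it did not pass (adjusted p = 0.0991).

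Stab1, the scavenger receptor stabilin-1 of macrophages and some endothelium, read 169.7, 126 and 146 in the NTG arrays, 151, 186 and 211 in the TM175 arrays and 238, 210.2, 234 and 209.5 in the TM180 arrays. The TM180 arrays exceeded the NTG arrays, and it rose in TM180 with extract type in the model (log2 difference 0.61 ± 0.13 SE, adjusted p = 0.0330), though not without it (adjusted p = 0.0905). The brightest probe set of the list was that of Pf4, platelet factor 4, at 0.985-fold (adjusted p = 0.965) and 1.01-fold (adjusted p = 0.999). Of 29 further lymphocyte genes 23 were measured and 0 called, with 1, 0 and 1 at an unadjusted p under 0.05 (13.0%, 9.34% and 13.3% of all probe sets). In TM175 21 of 23 lay above 0 with a median of 0.10. By array, the list median from the NTG mean was 0.30, 0.13 and -0.03 in the TM175 arrays, the last a pool. In the NTG arrays it was -0.09, 0.18 and -0.13, so the groups overlapped. Zap70, a T cell receptor kinase and the brightest of them, read 216, 259 and 251 in the NTG arrays, 298, 305 and 305 in the TM175 arrays and 256, 269, 236 and 232 in the TM180 arrays, at 1.25-fold (95% interval 1.07 to 1.46, adjusted p = 0.239).

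Chemokines and growth factors that act on myeloid cells, 26 of 27 measured, gave 0 calls, with 4, 0 and 4 at an unadjusted p under 0.05 (13.0%, 9.34% and 13.3% of all probe sets) and medians of 0.08, 0.00 and -0.11. The brightest was Cxcl12, a retention chemokine, at 0.985-fold (adjusted p = 0.963) in TM175 and 1.19-fold (adjusted p = 0.679) in TM180. Complement genes other than C1q, 9 of 13 measured, gave 0 calls, with 0, 5 and 2 at an unadjusted p under 0.05, beside those same shares of all probe sets. Cd93, a surface protein of endothelium and myeloid cells, rose in TM180 with extract type in the model (log2 difference 0.63 ± 0.13 SE, adjusted p = 0.0330) and not without it (adjusted p = 0.193). Serping1, the C1 inhibitor, was the brightest, with means of 527 ± 103 (SD, n = 3) in NTG and 807 ± 113 (SD, n = 4) in TM180, at 1.54-fold (adjusted p = 0.465).

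MHC class II held the 2 genes of these immune lists that were called without extract type in the model, both in TM180. Class II genes present antigen on macrophages, dendritic cells and B cells, and 6 of 7 were measured. H2-Aa, a class II alpha chain, read 402, 648 and 416 in the NTG arrays, 177, 192 and 220.2 in the TM175 arrays and 205, 228, 169 and 209.6 in the TM180 arrays, and every transgenic array lay below every control array. It fell in TM180 to 0.422-fold (95% interval 0.325 to 0.550, adjusted p = 0.0181) of NTG, and in TM175 it did not pass (adjusted p = 0.111) unless the model held extract type (adjusted p = 0.0243). H2-Ab1, its beta chain, read 372, 459 and 282 in the NTG arrays, 161, 172 and 201 in the TM175 arrays and 203, 225, 159 and 191 in the TM180 arrays. It fell in TM180 to 0.530-fold (95% interval 0.409 to 0.688, adjusted p = 0.0490), and with extract type in the model also in TM175 (adjusted p = 0.0308).

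Fits that left out 1 array gave adjusted p-values in TM180 of 0.0272 to 0.0580 for H2-Aa and 0.0445 to 0.186 for H2-Ab1. Cd74, the invariant chain, had a mean of 576 ± 202 (SD, n = 3) in NTG, 277 ± 63.9 (SD, n = 3) in TM175 and 274 ± 52.7 (SD, n = 4) in TM180, and was called in TM180 when extract type entered the model (adjusted p = 0.0379; 0.0986 without). H2-Eb1 and the class II activator Ciita lay at 0.916-fold and 0.871-fold in TM180, with no call. Beside the class II values, the 36 members ran from 0.817-fold for Cybb to 1.26-fold for Lgals3 in TM180. Their median log2 differences there were 0.03 for myeloid, 0.00 for general leukocyte and -0.06 for lymphoid genes. Among them, the B cell genes Cd79a and Cd79b lay at 0.958-fold and 1.02-fold, and Adgre1, Csf1r and Ptprc at 1.02-fold, 1.14-fold and 1.01-fold. The part of cell number in the class II values was not tested. Fibroblast markers, 8 of 8 measured, summed to 4602 to 6905 in NTG, 6639 to 10280 in TM175 and 8410 to 12870 in TM180.

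**Figure D5:**
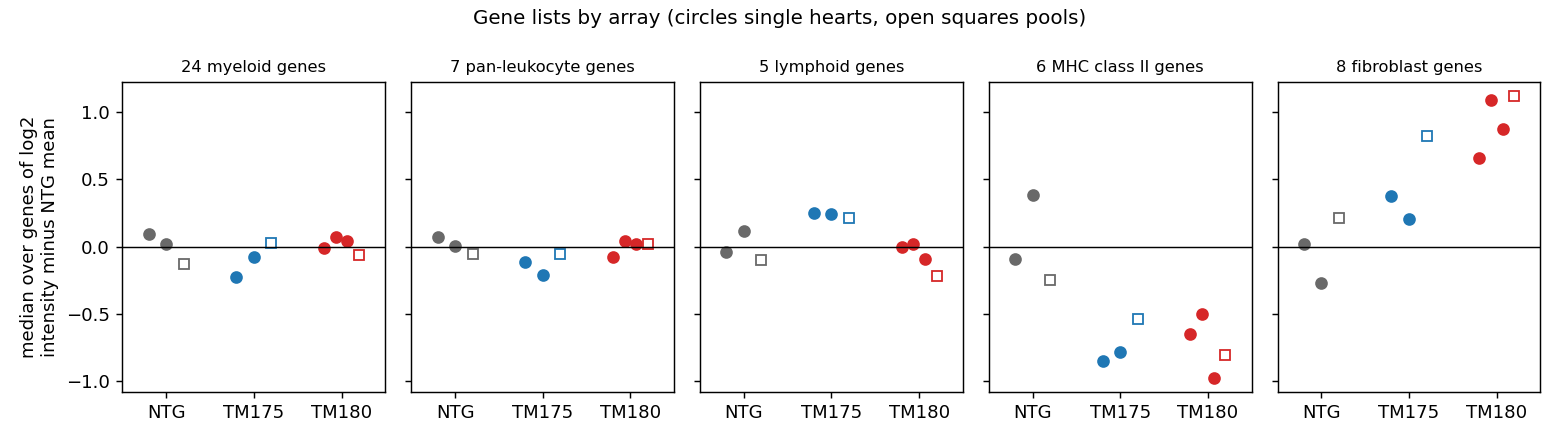
Each point is 1 array (filled circle, individual extract; open square, pool), and the vertical axis is the median over the genes of a list of the log2 intensity minus the mean of the NTG arrays. Myeloid and general leukocyte genes lie between -0.23 and 0.10 in all arrays and lymphoid genes are near 0.21 to 0.25 in TM175, whereas class II genes lie below and fibroblast genes above the NTG arrays in most transgenic arrays.

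Array by array, the myeloid median was lowest in TM175 array 1, at -0.23 from the NTG mean, and highest in NTG array 1, at 0.10. TM175 array 1 was the lowest of 10 for 8 of 24 myeloid genes (33.3%), against 14.1% of all probe sets. TM180 array 3 was the highest for 6 of 24 (25.0%), against 8.38% of all probe sets. Individual arrays alone gave a myeloid median in TM175 of -0.23, and extract type in the model without TM175 array 1 gave -0.03. The 5 genes outside all lists whose log2 profile was most like the myeloid median over the 10 arrays, among 12205 genes, were Ube2r2, Ifi27l2a, Psmb4, U2surp and Otud7b, with Pearson's r of 0.965 to 0.869, given as a description of profiles picked for likeness.

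The 3 pools were set against the 7 individual extracts in a fit that also held genotype, because blood and leukocyte content can vary between single hearts. Laptm5 was lower in the pools, at 0.754-fold (95% interval 0.662 to 0.860, adjusted p = 0.00768), and was the 1 member called (2.78% of 36, where 22.2% of all probe sets were called and 12.2% were called lower and 10.0% higher). It read 157 and 165.6 in the transgenic pools and 131 in the NTG pool, and 175 to 242 in the individual arrays. Its other 2 probe sets gave log2 differences of -0.06 and 0.46 (adjusted p of 0.656 and 0.0748) against -0.41 for the brightest, and the mean of the 3 gave no call (-0.0014, adjusted p = 0.992). A dimmer Cd4 probe set was also called lower in the pools (log2 difference -0.31, adjusted p = 0.0319). Altogether 7 members had an unadjusted p under 0.05, all lower in the pools, where 37.6% of all probe sets met it: Laptm5, Fcgr2b (0.771-fold), Tyrobp (0.835-fold), Adgre1 (0.841-fold), Cd4 (0.860-fold), Cd79a (0.868-fold) and Fcgr1 (0.853-fold). The medians were -0.01 for myeloid, 0.03 for general leukocyte and -0.15 for lymphoid genes, against -0.05 for all probe sets. C1qa, C1qb and C1qc lay at 1.07-fold, 1.02-fold and 1.02-fold.

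Of the members, 9 had more than 1 probe set. None of the 51 probe sets passed in a genotype comparison (0 limma calls, lowest adjusted p of 0.267, 0.272 and 0.302). Directions differed between probe sets of Fcgr2b in TM175, of C1qb, Cd4, Cd8a, Coro1a, Fcgr2b and Laptm5 in TM180, of Coro1a, Fcgr2b and Laptm5 between the lines, and of Coro1a, Csf1r, Fcgr2b and Laptm5 in the comparison of pools. The directions given above for these members hold for the brightest probe set.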

How the data were processed

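Total RNA of mouse ventricles was hybridised to Affymetrix 3′ expression arrays, with 1 extract on each. The deposited values are linear intensities that the authors made with RMA, per the submitters' processing notes (version not given). RMA subtracts background, equalises the arrays' distributions and combines a probe set's probes, which can compress small differences. High intensities were written with a point before their last 3 digits, which was undone for 7844 of 226900 values. No value of a member was affected. The level of 228 probe sets could not be settled, and their values were kept as written. In a self-test, 224620 settled values were slightly varied, written in the same form and read again by the same rule. It gave 0 errors, but it started from the rule's own output and so cannot show that the first reading was right. Log2 intensities of 22626 probe sets (64 controls left out; 20380 with 1 symbol, 691 with several, 1555 with none) were fitted with limma 3.58.1 in R 4.3.3, 1 mean per genotype, all 10 arrays, with two-sided Benjamini-Hochberg adjusted p-values. Pools were compared with individual extracts with genotype in the model.

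The number of arrays limits precision. On simulated data the model recovered 0%, 16% and 3% of log2 changes of 0.5 (TM175, TM180 and between the lines) and 78.5%, 81.5% and 83.5% of changes of 1. The members and lists were chosen with earlier results of these data known. All members may be named. Genes of other lists are named where called with or without extract type, or where brightest. Alternatives were extract type, individual arrays only, replicate block, leaving out 1 array, the 2 groups alone, array weights, intensity trend with robust fitting, repeated quantile normalization, median centring, a level filter, the mean of a gene's probe sets, and the values as written.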

Additional observations from a re-analysis of the deposited data

Results flagged for a closer look

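Outlier checks within the 4 TM180 arrays singled out 2 of the 36 members, and chance alone singles out about 1 in 20 groups. Mpeg1, the gene of perforin-2, read 170.1 in TM180 array 3 and 122.0 to 125.4 in the other 3 TM180 arrays. Cd3e, a chain of the T cell receptor complex, read 189.3 in that same array and 217.7 to 221.5 in the other 3. TM180 array 3 is an individual extract, and it was also the highest of the 10 arrays for 6 of 24 myeloid genes, beside 8.38% of all probe sets.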

How the results depend on the processing

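Of the settings tried, only array weights changed the count of called members in a genotype comparison, to 12 in TM175 (higher Cd3e, Cd4, Cd8a, Cx3cr1, Fcgr2b and Itgam; lower Aif1, Cd48, Coro1a, Ctss, Lcp1 and Mrc1), 2 in TM180 (lower Cd48 and Cybb) and 6 between the lines (higher Cd68 and Lcp1; lower Cd4, Cd8a, Cybb and Itgam). The cause was not tested. Leaving out 1 array gave 0 called members in every genotype comparison, with lowest adjusted p-values of 0.131, 0.214 and 0.179, and no call reversed. The myeloid median in TM175 ran from -0.19 (without TM175 array 3) to -0.052 (without NTG array 1), and it was -0.23 in individual arrays only. The general leukocyte median in TM175 ran from -0.15 (without TM175 array 1) to -0.064 without NTG array 1 and -0.060 without TM175 array 2; it was -0.19 with array weights, -0.20 with quantiles normalized again, and -0.064 in TM180 in individual arrays only. Between the lines the myeloid median was 0.21 and the lymphoid -0.24 (1 gene, Cd3e) among probe sets above the median level, and the lymphoid was -0.24 with the mean of a gene's probe sets. The values from individual arrays only and from the level filter rest on fewer arrays or genes, and the cause of the other shifts was not tested. In the comparison of pools, 3 members were called with quantiles normalized again (Adgre1 and Tyrobp joined), 1 to 2 when 1 array was left out (Fcgr2b joined without NTG array 1), and Cd4 but not Laptm5 with the mean of a gene's probe sets. The medians ran from -0.15 (without TM175 array 3) to 0.046 for myeloid and from 0.0009 to 0.11 (without NTG array 3) for general leukocyte genes, and the lymphoid value was 0.023 with the level filter (Cd3e). The lymphoid medians in TM175 (0.20 to 0.32 when 1 array was left out) and between the lines stayed on their side of 0.

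The 9 same-numbered pairs of arrays correlated at -0.534 to 0.707, 6 of them above 0.1. The values of -0.51 and -0.53 set TM180 array 3, an individual extract, against the TM175 and NTG pools. Arrays of different number could correlate too, as TM175 array 1 and NTG array 2 did at 0.66. These correlations cannot show whether replicate numbers pair the arrays. With the number as a replicate block 0 members were called in each genotype comparison, and the block left the median log2 difference of lymphoid members in TM175 at 0.26.

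Depth cannot be stated for arrays. Differences near 1.4-fold were seldom recovered in simulated data, so the absence of calls does not show that the members were equal. All lymphoid probe sets except that of Cd3e lay below the median level.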

Other observations

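Pools and individual extracts differed in 22.2% of all probe sets, 12.2% lower and 10.0% higher in pools, and the immune genes beyond the 36 are given beside that background. Of 23 further lymphocyte genes, 7 were lower in the 3 pools than in the 7 individual arrays by limma with genotype in the model: Cd2, Cd5, Il7r, Nkg7, Klrd1 and the granzymes Gzma and Gzmb, at 0.760-fold to 0.821-fold. Of 35 further myeloid genes 5 were lower, namely Fgr, Rac2, Gpnmb, Ccr2 and Cd84. Ccr2, the receptor that recruits blood monocytes, lay at 0.775-fold (95% interval 0.684 to 0.878, adjusted p = 0.0101) and ran from 22.3 to 26.7 in pools and from 25.9 to 35.4 in individual arrays. Cd84, an adhesion receptor of leukocytes, lay at 0.615-fold (95% interval 0.487 to 0.778, adjusted p = 0.00923), without overlap. Of 26 chemokine and growth factor genes 4 were lower, the cytokine gene Tnf at 0.717-fold (adjusted p = 0.00802) with Ccl4, Cxcl2 and Csf2, and Cd55 was the 1 complement gene called, at 1.19-fold (adjusted p = 0.0447).

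Some markers of other cells were called as well, which are read against the same shares of all probe sets. In pools 3 of 8 neutrophil markers (Camp, Ngp and Cxcr2) and 3 of 6 mast cell markers (Cpa3, Kit and Fcer1a) were lower, at 0.701-fold to 0.804-fold. Of 8 fibroblast markers 3 were higher, Dcn at 1.61-fold (95% interval 1.40 to 1.86, adjusted p = 0.000425) with Col3a1 and Tcf21, and of 6 endothelial markers 1, the receptor Kdr, at 1.25-fold (adjusted p = 0.0216). These genes were named after their values were seen, and the part of hearts, pooling or handling in these differences was not tested.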
